A study of Mus musculus with 5 samples.

Results

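A group of 10 growth factor genes was followed in mature 3T3-L1 adipocytes kept with or without human myeloma cells: Vegfa, Vegfb, Vegfc, Hgf, Angpt1, Angpt2, Fgf2, Fgf7, Pdgfa and Pdgfb. They were listed by name, as genes for secreted factors that act on vessels and mesenchymal cells; the rule used no measured value, but the list was drawn up with earlier results of these data known. Each of the 10 was measured by 1 of the 22206 probe sets on the array, 19572 of which carried a single gene symbol. 3T3-L1 is a mouse preadipocyte line that forms fat cells under hormones. After 4 days of growth, differentiation was driven for 4 days by insulin (5 µg/mL), dexamethasone (1 µM) and IBMX (0.5 mM), then for 2 days by insulin only, and 1 day without hormones followed. All cultures then spent 72 h in RPMI-1640 with 10% serum. In the 3 exposed samples the myeloma line MM.1S sat behind a membrane with 0.4 µm pores, and the 2 control samples had that medium alone. Both groups thus shared the same line and hormone history, and the model is 1 cell line in a dish rather than fat tissue or marrow. Nothing in the labels says that replicates came from separate cultures, so each p-value reflects how far these 5 samples vary, and that variation may be technical only.

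Vascular endothelial growth factors bind receptor kinases on blood and lymph vessel cells, and angiopoietins tune vessel stability through the Tie receptors. Hepatocyte growth factor, which mesenchymal cells make, signals through Met. Fibroblast and platelet-derived growth factors drive the growth and migration of stromal and mural cells. Fat tissue is known to release Vegfa, which supports its capillary bed as it expands, and myeloma grows in a marrow rich in vessels and adipocytes. The comparison asks whether the adipocytes' own transcripts for these factors differ when myeloma cells share the medium. Secreted protein was not measured.

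None of the 10 genes differed between exposed and control arrays by the test over all probe sets. limma, a linear model that shares information on spread between genes, called 0 of the 10 at a Benjamini-Hochberg adjusted p under 0.05, and 0 of all 22206 probe sets (0%). At an unadjusted p under 0.05 there was 1 of the 10, Angpt2, against 3.49% of all probe sets (776). Group means were lower on exposed arrays for 8 genes and higher for 2, Angpt2 and Vegfc, and 5 of the 10 differences were smaller than the gene's own pooled SD within groups. The median difference was -0.136 on the log2 scale, beside -0.0004 over all probe sets. The latter covers dim and bright probe sets alike, while all of the 10 but Angpt2 and Fgf2 were brighter than the median probe set. No comparison with probe sets of like signal was made. For all 10 genes the 95% interval excluded a 2-fold difference in array value in either direction, as it did for 92.9% of all probe sets. For 7 it also excluded a 1.5-fold one. These bounds hold for array values, and for a gene as dim as Angpt2 they do not exclude a 2-fold difference in RNA. In a bulk sample, fewer cells that make a transcript and less of it per cell cannot be told apart.

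**Figure D1:**
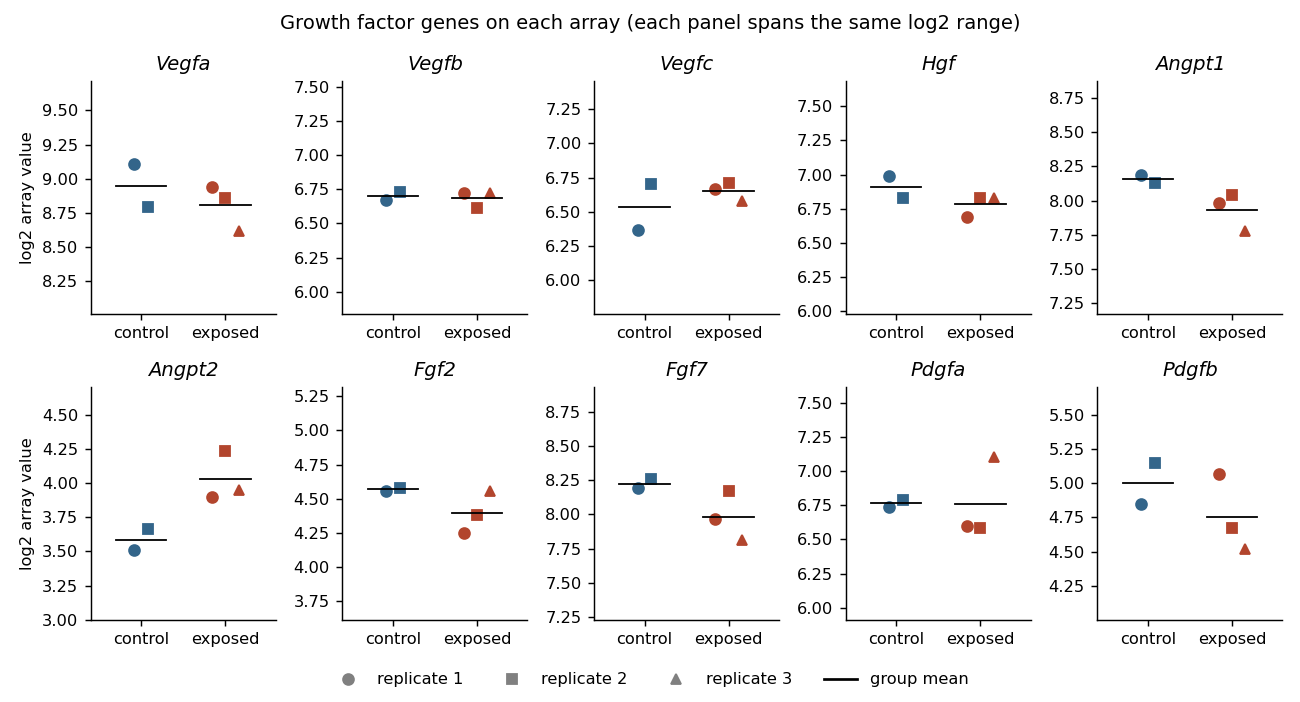
Log2 array value (y axis) of the 10 growth factor genes on the 2 control arrays (blue) and the 3 exposed arrays (red), with 1 symbol per replicate and a black line at each group mean. All panels span the same log2 range; Angpt2 is the gene whose exposed arrays all sit above its control arrays, and Angpt1 and Fgf7 those whose exposed arrays all sit below.

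The table has no detection calls, so signal was set against 1091 probe sets for olfactory receptors, which are silent in most tissues outside the nose. Their means had a median of 2.55 and a 95th percentile of 4.03. Vegfa, Vegfb, Vegfc, Hgf, Angpt1, Fgf7 and Pdgfa each had a mean above every one of these 1091. Pdgfb had 6 of them at or above its mean, Fgf2 had 19 and Angpt2 had 80. Angpt2, with a mean of 3.85, was thus the dimmest and the one gene of the 10 below the 95th percentile of the olfactory receptor probe sets. Array values of different probe sets do not rank RNA amounts, and no order of abundance between the genes is given.

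Promoter sequence was available for 7 of the 10 genes in the RefSeq table of build GRCm38.p6. The 250 bases before the outermost start site are shown for Vegfa, whose signal was clear on every array, and for Fgf7, a gene without overlap between the groups. Capitals mark the GC box, GGGCGG, which Sp1 family factors bind, and ACGTG or GCGTG, the core that hypoxia-inducible factors bind, on either strand. The Vegfa window lies at chr17:46032378-46032627 on the minus strand and the Fgf7 window at chr2:126034408-126034657 on the plus strand.
Vegfa: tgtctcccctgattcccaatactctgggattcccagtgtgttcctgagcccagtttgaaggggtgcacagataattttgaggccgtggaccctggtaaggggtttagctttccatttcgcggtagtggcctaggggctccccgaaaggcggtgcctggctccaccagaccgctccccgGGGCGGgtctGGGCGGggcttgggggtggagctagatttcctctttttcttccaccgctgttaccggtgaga
Fgf7: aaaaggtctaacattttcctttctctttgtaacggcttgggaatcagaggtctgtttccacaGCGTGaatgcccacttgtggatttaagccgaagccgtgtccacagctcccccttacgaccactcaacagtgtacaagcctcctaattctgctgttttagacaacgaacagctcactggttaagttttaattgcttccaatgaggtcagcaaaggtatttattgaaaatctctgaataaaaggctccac
The Vegfa window held 2 GC boxes, 0 hypoxia cores and 59.2% G or C, and the Fgf7 window held 0 GC boxes, 1 hypoxia core and 43.6% G or C. Over all 32851 windows of this length in the table, 32.7% held a GC box and 38.6% a hypoxia core. Counting every listed start site, 5 of the 7 genes had a window with a GC box, 6 had one with a hypoxia core, and 0 had the TATA box TATAAA, which 12.4% of all windows held. For Vegfa the hypoxia core lay only in a second window, not shown. The counts are of genes, some with several windows, and the shares are of windows, so they are not like for like. These are matches of letters in a short window and say nothing of binding in these cells.

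The 3 VEGF genes showed no difference beyond the spread between arrays. Vegfa, the main driver of capillary growth, read 8.94, 8.86 and 8.62 on exposed arrays 1 to 3 and 9.11 and 8.79 on control arrays 1 and 2. Exposed array 3 was the lowest and control array 1 the highest, and the groups overlapped. The difference was -0.144 (95% interval -0.546 to 0.259, limma adjusted p 0.94), or 0.905-fold, and it had the other sign without control array 1 (0.012). Vegfb, a family member tied to fatty acid handling and the heart, was the steadiest of the 10. Its values were 6.72, 6.61 and 6.72 against 6.67 and 6.73, its pooled SD was 0.0577, and only 5.99% of all probe sets had a smaller one. The interval for its difference ran from -0.312 to 0.281. Vegfc, the lymphatic growth factor, read 6.67, 6.71 and 6.58 on exposed and 6.37 and 6.70 on control arrays. The low value of control array 1 set its difference of 0.118 (-0.242 to 0.478, limma adjusted p 0.94), and without that array it was -0.045.

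Angpt1 and Angpt2, which steady and loosen vessels through the same receptor, had group means that differed in opposite directions. Angpt1, the agonist of the pair, read 7.98, 8.04 and 7.78 on exposed and 8.19 and 8.13 on control arrays. All 3 exposed values lay below both control values. The difference was -0.222 (95% interval -0.556 to 0.112), or 0.857-fold, with an unadjusted p of 0.16 and a limma adjusted p of 0.93. Angpt2, which can block or partly activate that receptor, read 3.90, 4.23 and 3.95 on exposed and 3.51 and 3.66 on control arrays. All 3 exposed values lay above both control values, the highest on exposed array 2. Group values were 4.03 ± 0.18 (SD, n = 3) and 3.59 ± 0.109 (SD, n = 2). Its difference of 0.441 (0.0654 to 0.817), or 1.36-fold, was larger in size than that of 94.9% of all probe sets. It did not pass the test (unadjusted p 0.028, limma adjusted p 0.93). RMA, the authors' normalization, is known to compress differences between signals as dim as this.

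The contrast between both angiopoietins, chosen after their values were seen, was set against the same contrast in other pairs within a family. The log2 ratio of Angpt2 to Angpt1, relative to its mean on control arrays, was 0.49, 0.76 and 0.74 on exposed arrays 1 to 3 and -0.11 and 0.11 on the control arrays. The exposed arrays lay 0.66 higher on average and did not overlap the control arrays. That separation was built in, since every exposed array was lower for Angpt1 and higher for Angpt2. An exact permutation test over the 10 possible splits gave a two-sided p of 0.1, and 0.5 after adjustment over the 5 pairs compared. The 0.1 is the smallest this design allows, but the choice of the pair largely fixed it, so it adds no support. For the ratios of Vegfb and Vegfc to Vegfa, Fgf2 to Fgf7 and Pdgfb to Pdgfa, the exact p lay between 0.5 and 1. Since the choice of the angiopoietin pair followed its values, these p-values do not set it apart. The ratio is a description, and its Angpt2 term is dim, with a mean below the 95th percentile of olfactory receptor probe sets.

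Hgf and both fibroblast growth factors had lower group means on exposed arrays, and none passed the test (limma adjusted p 0.93 each). Each difference was larger in size than the gene's pooled SD within groups, 0.0929 for Hgf, 0.151 for Fgf7 and 0.129 for Fgf2. Hgf, the ligand of Met, read 6.69, 6.83 and 6.83 on exposed and 6.99 and 6.83 on control arrays. Exposed arrays 2 and 3 and control array 2 held the identical value of 6.83, so only 3 distinct values stand behind its difference of -0.127 (-0.445 to 0.19). Ties of this kind, identical to every digit deposited, were common, with 27.2% of all probe sets holding the same value on at least 2 arrays. Fgf7, the keratinocyte growth factor that stromal cells make for epithelium, read 7.97, 8.17 and 7.81 against 8.19 and 8.26. All exposed values were below both control values, but exposed array 2 lay only just below control array 1. The difference was -0.242 (-0.608 to 0.125, limma adjusted p 0.93), or 0.846-fold. Fgf2, a broad mitogen that also supports preadipocytes, read 4.25, 4.38 and 4.56 on exposed and 4.56 and 4.58 on control arrays. Exposed array 3 and control array 1 held the same value, so the groups met at that point, and the difference was -0.174 (-0.52 to 0.172).

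Fgf7 and Angpt1 shared the order of the exposed arrays only. In both, exposed array 3 was the lowest of the 5, then exposed array 1, then exposed array 2. The control arrays lay above, with control array 1 the higher for Angpt1 and control array 2 the higher for Fgf7. Counting the genes of the 10 whose exposed arrays did not overlap the control arrays gave 2 lower and 1 higher. Among all probe sets 8.84% were lower in this way and 8.50% higher, 17.3% in all, and 3 of 10 was read against that share with no further test.

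**Figure D2:**
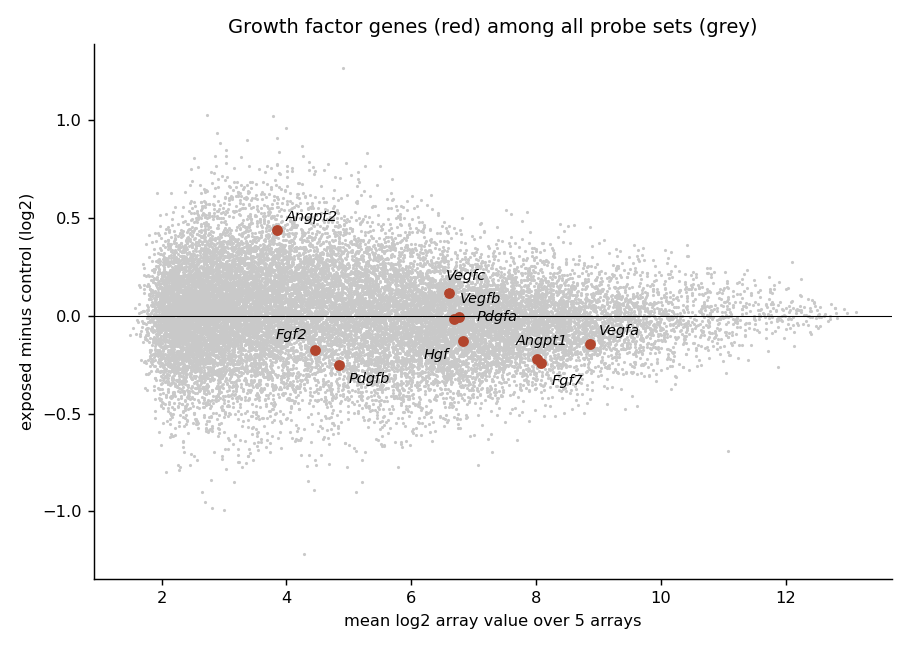
Mean log2 array value over the 5 arrays (x axis) against exposed minus control on the log2 scale (y axis) for all 22206 probe sets (grey) and the 10 growth factor genes (red). The red points lie inside the grey cloud, from Pdgfb at -0.252 to Angpt2 at 0.441.

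The PDGF genes varied most between arrays of 1 group. Pdgfa, a mitogen for mesenchymal progenitors, read 6.60, 6.58 and 7.10 on exposed and 6.74 and 6.79 on control arrays. Exposed array 3 was the highest of the 5 and the other exposed arrays were the lowest, so the group means were equal at 6.76 and the difference was -0.00615 (-0.472 to 0.459). Without exposed array 3 it was -0.17. Pdgfb, which recruits pericytes to vessels, read 5.07, 4.67 and 4.52 on exposed and 4.85 and 5.15 on control arrays. Here exposed array 3 was the lowest, and the groups overlapped. Its difference of -0.252 had an interval of -0.746 to 0.243, the widest of the 10, and moved between -0.41 and -0.1 as single arrays were left out. Its pooled SD of 0.262 was larger than that of 70.5% of all probe sets. Pdgfa stood at 64.5% and the other 8 genes stood below the middle of that scale.

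Angpt2 also had the widest range over the 5 arrays, 0.72. The genes whose values, centred on their own mean, lay closest to it among 18583 probe sets with a named gene were Aox2, an aldehyde oxidase gene, Pde9a, a cyclic GMP phosphodiesterase gene, and Ebi3, a cytokine subunit gene. Their root mean square distances over the 5 arrays were 0.047, 0.048 and 0.049 on the log2 scale. Aox2 (mean 2.73) and Ebi3 (3.13) lay below the 95th percentile of olfactory receptor probe sets, 4.03, and Pde9a (4.21) little above it. With so many genes searched over 5 arrays, close neighbours are to be found for most patterns, and none of the 3 passed the test (limma adjusted p 0.93 each).

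**Figure D3:**
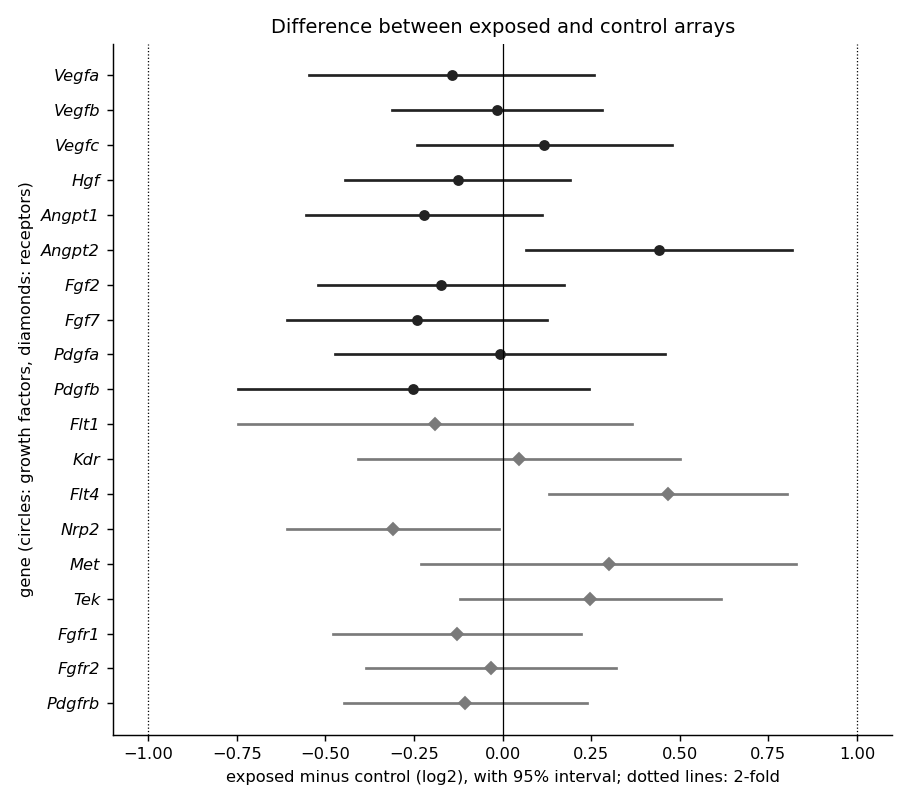
Exposed minus control on the log2 scale (x axis) with its 95% interval from limma for the 10 growth factor genes (circles) and 9 measured receptor genes (diamonds), 1 gene a line. No interval reaches the dotted lines at a 2-fold difference in array value, and those of Angpt2, Flt4 and Nrp2 do not cross 0. For dim genes such as Angpt2, Kdr and Tek the intervals bound array values and not RNA.

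Receptors for these factors were measured to see whether the adipocytes also carry the receiving side. Flt4, the Vegfc receptor of lymphatic vessels, read 4.15, 4.02 and 3.90 on exposed and 3.62 and 3.49 on control arrays. Exposed arrays were all higher, by 0.467 (0.132 to 0.802), with an unadjusted p of 0.014 and a limma adjusted p of 0.93. Its mean of 3.83 lies below the 95th percentile of olfactory receptor probe sets. Nrp2, a co-receptor of Vegfc, read 6.80, 6.83 and 6.69 on exposed and 7.08 and 7.09 on control arrays. Exposed arrays were all lower, with a difference of -0.31 (-0.609 to -0.0115), with an unadjusted p of 0.044 and a limma adjusted p of 0.93. Flt1, which binds Vegfa and Vegfb, differed by -0.19 (-0.746 to 0.366), and exposed array 1 read 4.98 where the other arrays lay between 5.59 and 5.67. Without that array the Flt1 difference was 0.027. Kdr, the main signalling receptor of Vegfa, had a mean of 2.33 and Tek, the angiopoietin receptor, one of 2.27, both below the median of the olfactory receptor probe sets.

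Met, the Hgf receptor, had values of 6.66, 6.99 and 7.28 on exposed and 6.85 and 6.50 on control arrays. The groups overlapped, and the difference was 0.30 (-0.229 to 0.829). Fgfr1 differed by -0.129 (-0.48 to 0.222) at a mean of 7.92, and Fgfr2, whose epithelial form is the receptor of Fgf7, by -0.0322 (-0.385 to 0.32) at 6.22. Pdgfrb, the receptor of Pdgfb, differed by -0.105 (-0.447 to 0.237) at 7.39. Nrp1 and Pdgfra were not analysed here.

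**Figure D4:**
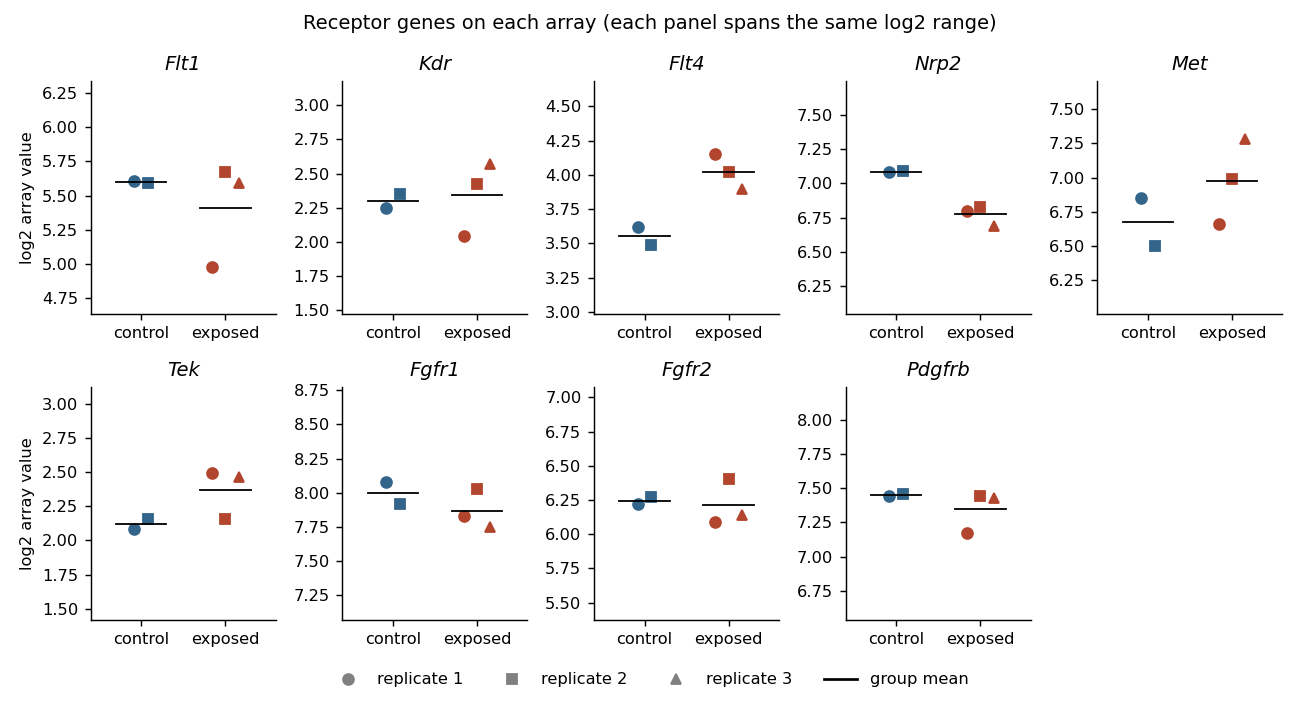
Log2 array value (y axis) of 9 receptor genes on the 2 control arrays (blue) and 3 exposed arrays (red), with 1 symbol per replicate and a black line at each group mean. All panels span the same log2 range; Flt4 lies higher and Nrp2 lower on every exposed array, and exposed array 1 is low for Flt1.

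Other genes of the same pathways were taken from 8 lists, with 89 genes measured in all. The lists were written with earlier results of these data known, so their shares are a description only. limma called 0 of the 89, and 6 had an unadjusted p under 0.05 (6.74%, against 3.49% of all probe sets), 3 higher and 3 lower. Groups did not overlap for 19 of them (21.3%, against 17.3%), and more of these were lower than higher on exposed arrays. The oxygen sensing and antiangiogenic lists each had 4 lower and 1 higher. Over all probe sets the shares were 8.84% lower and 8.50% higher. The median difference was -0.032 and 54 of the 89 had lower means on exposed arrays.

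The VEGF list held 6 measured genes, of which 4 had higher and 2 lower means (median 0.0257). Vegfd, a further lymphatic ligand, had a mean of 9.30 and differed by 0.00516 (-0.292 to 0.303). Pgf, the placental member, had a mean of 2.56, near the median of the olfactory receptor probe sets. Among 9 genes that activate, inhibit or receive Hgf, 5 were higher and 4 lower in mean (median 0.173). In that list Spint1, an inhibitor of the Hgf activator, differed by 0.405 (-0.218 to 1.03), with 4.17 on exposed array 1 where the other 4 arrays read 3.19 to 3.42. The list's median was -0.11 without control array 1, and -0.24 over its 3 genes no dimmer than the median probe set. The VEGF list's median likewise turned, to -0.085 without exposed array 3 and to -0.19 over its 3 brighter genes. Spint1 was dim, with a mean of 3.51.

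Of 8 angiopoietin receptors and relatives, 3 were higher and 5 lower (median -0.0764). Tie1, the partner of the angiopoietin receptor, differed by -0.538 (-1.19 to 0.11), with 2.61 on exposed array 3. Angptl1, an angiopoietin-like gene, differed by -0.27, and by -0.018 without control array 2 and -0.52 without control array 1. Of 18 FGF ligands, receptors and cofactors, 8 were higher and 10 lower (median -0.0387, or 0.043 without control array 1). The ligand gene Fgf9 differed by 0.503 (-0.177 to 1.18) and the receptor gene Fgfr3 by 0.351 (-0.637 to 1.34), each with its highest value on exposed array 1. Without that array Fgf9 differed by 0.27 and Fgfr3 by -0.011. Means of Tie1 (3.30), Angptl1 (2.92), Fgf9 (2.70) and Fgfr3 (3.48) lay below the 95th percentile of olfactory receptor probe sets, 4.03. All 4 measured genes of the PDGF list had lower means (median -0.129), from Pdgfrl, a receptor-like gene, at -0.377 to the ligand gene Pdgfd at -0.000388. Pdgfc, another ligand gene, differed by -0.152, and by 0.0054 without exposed array 1.

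Feedback and adaptor genes of receptor kinases were 5 higher and 9 lower of 14 (median -0.0435). Grb2, the adaptor that couples these receptors to Ras, read 6.49, 6.57 and 6.49 on exposed and 7.06 and 7.02 on control arrays. Exposed arrays were all lower, with a difference of -0.527 (-0.817 to -0.237), with an unadjusted p of 0.0042 and a limma adjusted p of 0.93. Spry1, a feedback inhibitor of the same pathway, read 5.28, 5.59 and 5.96 against 5.27 and 4.83, a difference of 0.56 (-0.0281 to 1.15). The lowest exposed value and the highest control value of Spry1 were nearly equal.

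Oxygen sensing genes and other regulators of Vegfa were 5 higher and 11 lower of 16 (median -0.0334). Hif1a, the oxygen-regulated factor that switches Vegfa on under low oxygen, read 8.11, 8.37 and 8.33 on exposed and 8.67 and 8.57 on control arrays. All exposed values were lower, with a difference of -0.351 (-0.691 to -0.0118), with an unadjusted p of 0.044 and a limma adjusted p of 0.93. Hif3a, a relative that can restrain this response, read 4.58, 4.61 and 4.55 against 4.04 and 4.13. Exposed arrays were all higher, by 0.493 (0.203 to 0.784, unadjusted p 0.0058, limma adjusted p 0.93). Hif1a and Hif3a are named because their differences were the largest of the list, and the activity of these factors was not measured. Antiangiogenic factors were 5 higher and 9 lower of 14 (median -0.0441). Vash2, a vasohibin gene placed in that list although it is also known to favour vessel growth, differed by 0.435 (0.00537 to 0.864) at a mean of 3.39, and the chemokine gene Cxcl14 by 0.39 (-0.20 to 0.98) at 3.95, both below that percentile. Without control array 1 Cxcl14 differed by 0.015 and Vash2 by 0.67, and without control array 2 by 0.77 and 0.20.

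**Figure D5:**
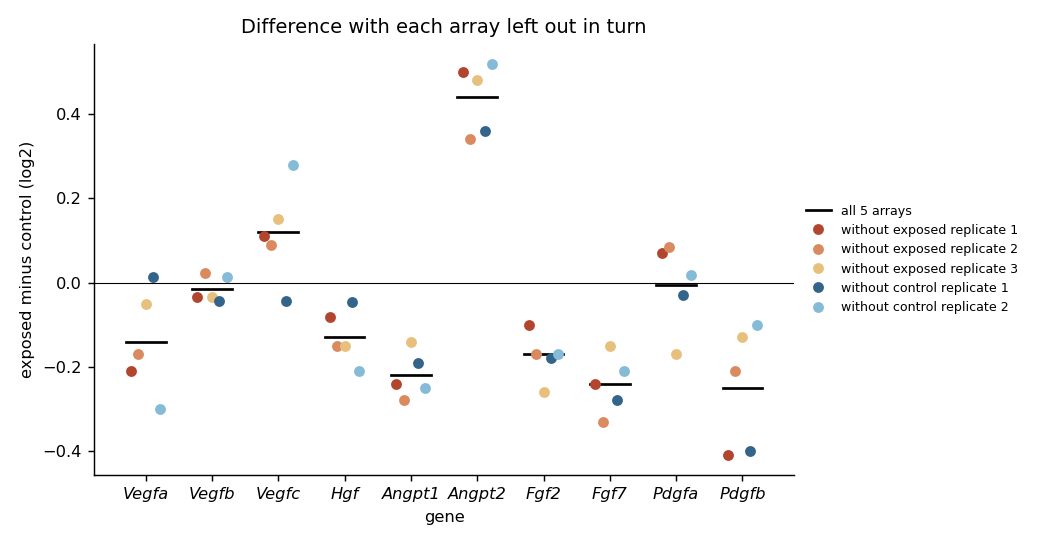
Exposed minus control on the log2 scale (y axis) for each of the 10 growth factor genes (x axis), with all 5 arrays (black line) and with each array left out in turn (coloured points). Angpt2 stays between 0.34 and 0.52, while Vegfa, Vegfb, Vegfc and Pdgfa have points on both sides of 0.

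Cell type markers were read against the label of mature fat cells from a preadipocyte line. Of 10 adipocyte markers 9 had a mean above the 95th percentile of olfactory receptor probe sets, from Slc2a4 at 5.81 and Cebpa at 6.24 to Lpl at 12.12 and Fabp4 at 12.37, and Lep at 3.17 did not. The list had array means of 9.02 to 9.12 on exposed and 9.09 to 9.10 on control arrays. Within it Retn was higher on every exposed array (by 0.456) and Cebpa lower on every one (-0.239), and neither passed the test (limma adjusted p 0.93 each). Preadipocyte and fibroblast markers were led by Dlk1 at 10.45 and Col3a1 at 10.12, with 7 of 9 lower in mean on exposed arrays (median -0.135). Cd34, Dpp4, Pi16 and Fap, 4 of the 9, lay below the olfactory receptor 95th percentile. In 2 of the 9, Dlk1 and Col3a1, all exposed values lay below both control values, as in Fgf7 and Angpt1 and as in 8.84% of all probe sets. Thy1, the next brightest at 9.30, differed by 0.105 with overlap. All exposed values also lay below both control values for 1 adipocyte marker, Cebpa, and for 1 macrophage marker. The part of any of these markers in the results for Fgf7 and Angpt1 was not tested. Array means of the preadipocyte and fibroblast list were 6.31 to 6.40 on exposed and 6.37 to 6.50 on control arrays. Of 10 endothelial markers 9 had a mean below the 95th percentile of olfactory receptor probe sets, the exception being Esam at 5.04, and Vwf stood next at 3.57. Endothelial array means were 2.96 to 3.06 on exposed and 2.97 to 2.99 on control arrays. Mural markers were led by Des at 6.55 and Mcam at 6.36, with array means of 4.19 to 4.30 and 4.24 to 4.25. Macrophage markers were led by Lyz2 at 5.02 and Ptprc at 4.22, and B and plasma cell markers by Sdc1 at 7.49, which fibroblasts and epithelium also express, and Irf4 at 4.30. Most others were dim. Of 8 mural markers 5 lay below the olfactory receptor 95th percentile, as did 7 of 9 macrophage markers. For B and plasma cell markers that count was 6 of 9. Array means of the macrophage list were 3.37 to 3.50 on exposed and 3.32 to 3.54 on control arrays, and those of the B and plasma cell list 3.41 to 3.66 and 3.37 to 3.62.

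Over all probe sets, the number lying beyond 2-fold between 2 arrays was 204 to 425 for pairs within a group and 107 to 356 for pairs across groups. Exposed arrays 1 and 3, which stood apart on Pdgfa and Pdgfb, were the pair with 425, and exposed array 2 and control array 1 the pair with 107.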

How the data were processed

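Total RNA, 50 ng a sample, was run on Affymetrix Clariom S arrays, 3 exposed and 2 control. The deposited values are log2 expression that the authors made in Partek with RMA, per the submitters' processing notes. Software versions and the build behind the annotation are not given in the sources used here. Array medians ran from 4.80 to 4.88 and values from 1.20 to 13.21. The small number of arrays limits precision. Symbols were taken from the annotation of the array platform (0 probe sets had several, 2634 none). Where a gene had several sets the brightest on average was used; each of the 10 genes had 1.

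limma 3.58.1 in R 4.3.3 was fitted over all 22206 probe sets (lmFit, eBayes, two-sided, no term besides group, 3 residual and 3.17 prior degrees of freedom), with Benjamini-Hochberg adjustment over all of them. Differences are exposed minus control, with 95% intervals. The script was tested on simulated data. Members and lists were chosen with earlier results of these data known. Named beside the 10 were fixed receptors and the 2 genes with the largest difference of each pathway list where none was called. The 2 brightest of each marker list and the 3 genes nearest to the member of widest range were also named. Vegfd, Pgf, Pdgfd, Retn and 8 further adipocyte and fibroblast markers were named outside these rules, after their values were seen. Alternatives left out each array, blocked by replicate number, filtered dim probe sets, rescaled the arrays, weighted them or changed the moderation. Planned protein comparisons were not made, since no protein sequences were used here.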

Additional observations from a re-analysis of the deposited data

How the results depend on the processing

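No alternative called any of the 10 genes. The count at an unadjusted p under 0.05 (1, Angpt2) was 0 to 1 with single arrays left out, and 0 after another quantile normalization, with no moderation, and among the brighter probe sets (mean level no lower than the median), where Angpt2 and Fgf2 were not tested. The median difference of the 10 genes (-0.14) ran from -0.16 to -0.045 with single arrays left out and was -0.1 after another quantile normalization. With single arrays left out, Vegfa ran from -0.3 to 0.012, Vegfb from -0.043 to 0.022, Vegfc from -0.045 to 0.28 and Pdgfa from -0.17 to 0.085. After another quantile normalization Vegfb was 0.028 and Pdgfa 0.039. Among 25 other named genes, single arrays left out moved Flt1 from -0.32 to 0.027, Kdr from -0.069 to 0.2, Fgfr2 from -0.13 to 0.028, Vegfd from -0.061 to 0.071, Pgf from -0.1 to 0.27, Pdgfd from -0.042 to 0.054, Fgfr3 from -0.028 to 0.73 and Pdgfc from -0.25 to 0.0054. With array weights Fgfr2 was 0.019 and Pdgfd 0.022, and with arrays centred on their medians Vegfd was -0.013; the cause of these sign changes was not tested. The other 17, Flt4, Nrp2, Grb2, Hif1a and Hif3a among them, kept their sign, though Cxcl14 ran from 0.015 to 0.77 and Angptl1 from -0.52 to -0.018. The ratio of Angpt2 to Angpt1 ran from 0.56 to 0.77. Hgf, Angpt1, Angpt2, Fgf2, Fgf7 and Pdgfb kept their sign under every alternative run for them, and Angpt2 ranged from 0.34 to 0.52 (unadjusted p 0.015 to 0.13, lowest limma adjusted p 0.85). Changing the moderation or filtering dim probe sets leaves each difference as it is, so those alternatives could not turn a sign. Leaving out a control array leaves 1, whose spread is then taken from the exposed arrays. The labels number replicates in both groups without saying that numbers pair samples, and deviations of same-numbered arrays correlated at -0.014 and -0.032. With replicate number as a block, exposed array 3 has no partner and adds nothing, so the differences equal those without that array. In that fit the median difference was -0.14, 0 genes were called and Angpt2 differed by 0.48. The block turned the sign of Kdr (-0.069), Fgfr2 (0.002), Vegfd (-0.00093), Pgf (-0.1) and Pdgfd (0.054), which were not called in either fit. Each of the 10 genes and of the listed genes had 1 probe set, so the mean over several was not run as an alternative. Dim signal limits Angpt2 most.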
